A study of Mus musculus with 2 samples.

Results

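The data described here are the chemokine ligand genes Ccl1, Ccl3, Ccl4, Ccl5, Ccl6, Ccl9, Xcl1, Cxcl2, Cxcl10 and Cxcl16, as measured in liver natural killer (NK) cells of naive B6 wild-type mice. All probe sets annotated to exactly 1 of these gene symbols were taken, which gave 13 probe sets for 10 genes, of 45101 probe sets and 18194 named genes on the array. One population, DX5- NK cells, was sorted as DX5- NK1.1+ CD3- cells, and the other, DX5+ NK cells, as DX5+ NK1.1+ CD3- cells. DX5 is an antibody against the integrin chain encoded by Itga2. RNA of each population was hybridised to 1 Affymetrix mouse expression array, so n = 1 in each group. No ratio has a spread between samples, no test between the populations was made, and "higher" and "lower" describe these 2 arrays. The sources used here do not give the age or sex of the mice or how many went into each sort.

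Chemokines are small secreted proteins that guide leukocytes through G protein-coupled receptors. Their families (CC, CXC, XC and CX3C) are named for the spacing of the first cysteines of the mature protein. NK cells are known to release CCL3, CCL4, CCL5 and XCL1 when activated, and these proteins draw T cells, myeloid cells and cross-presenting dendritic cells to the site. CXCL16 on liver sinusoidal cells is known as a ligand for lymphocytes that carry CXCR6.

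Values are MAS5 intensities, a linear signal per probe set. Ratios are log2, DX5- minus DX5+. A probe set was called detected where its intensity reached 91.3 (DX5- array) or 107 (DX5+ array), the 95th percentile on each array of 148 probe sets for genes of the sense organs, hair and eye lens. Where a probe set was detected on 1 array only, the other value was raised to that array's limit and the fold is a lower bound. Between probe sets of the same gene the log2 ratio had an SD of 0.32 over 4087 genes, from 0.38 in the dimmest of 4 equal groups to 0.24 in the brightest. That SD covers probe noise, not differences between mice or preparations. Intensities of different genes' probe sets are not compared, since each probe set has its own brightness.

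The NK cell identity of both populations was looked at through marker genes. Of 13 NK cell markers, 12 had a probe set and 11 were detected; 8 of these lay within 2-fold, among them Ncr1 (2390 in DX5- cells, 1788 in DX5+ cells), the gene of the NK receptor NKp46, and Tyrobp (22905 and 23420), a signalling adaptor of NK receptors. Itga1, an integrin chain of liver-resident cells, was at least 9.31-fold higher in DX5- cells, while Eomes, a transcription factor of NK cells, was 8.09-fold lower and Prf1, the perforin gene, 2.89-fold lower. Itga2, the gene of the DX5 antigen, was below the limit on both arrays, at 29.0 in DX5- cells and 105 in DX5+ cells. The DX5+ value was just short of the limit of 107. Klrb1c, the gene of NK1.1, is not measured by any probe set of its own. Cd3g, a chain of the CD3 complex by which both sorts were gated negative, read 14036 in DX5- cells, against 1072 in DX5+ cells. The 3′ to 5′ signal ratio, a sign of RNA integrity, was 1.73 (DX5-) and 1.62 (DX5+) for actin and 0.782 (DX5-) and 0.766 (DX5+) for Gapdh.

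Of the 10 chemokine ligand genes, 10 were detected on at least 1 array and 9 on both. Among them 3 were at least 2-fold higher in DX5- cells (Ccl1, Ccl3 and Ccl4), 2 were at least 2-fold lower (Ccl6 and Ccl9) and 5 lay within 2-fold. Over all 9954 detected genes, 3.58% passed 2-fold on the higher side and 5.52% on the lower side. Ccl6 and Ccl9 were also at least 4-fold lower as deposited, against 0.874% of all detected genes, though with spike-in scaling Ccl9 (-1.88) was not. The median log2 ratio of the ligands was 0.32, and that of all detected genes -0.004. The 18 spike-in control probe sets had a median log2 ratio of -0.22, and when the arrays were scaled to them instead, the median of all detected genes became 0.190, with 6.24% of genes past 2-fold on the higher side and 3.66% on the lower side.

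**Figure D1:**
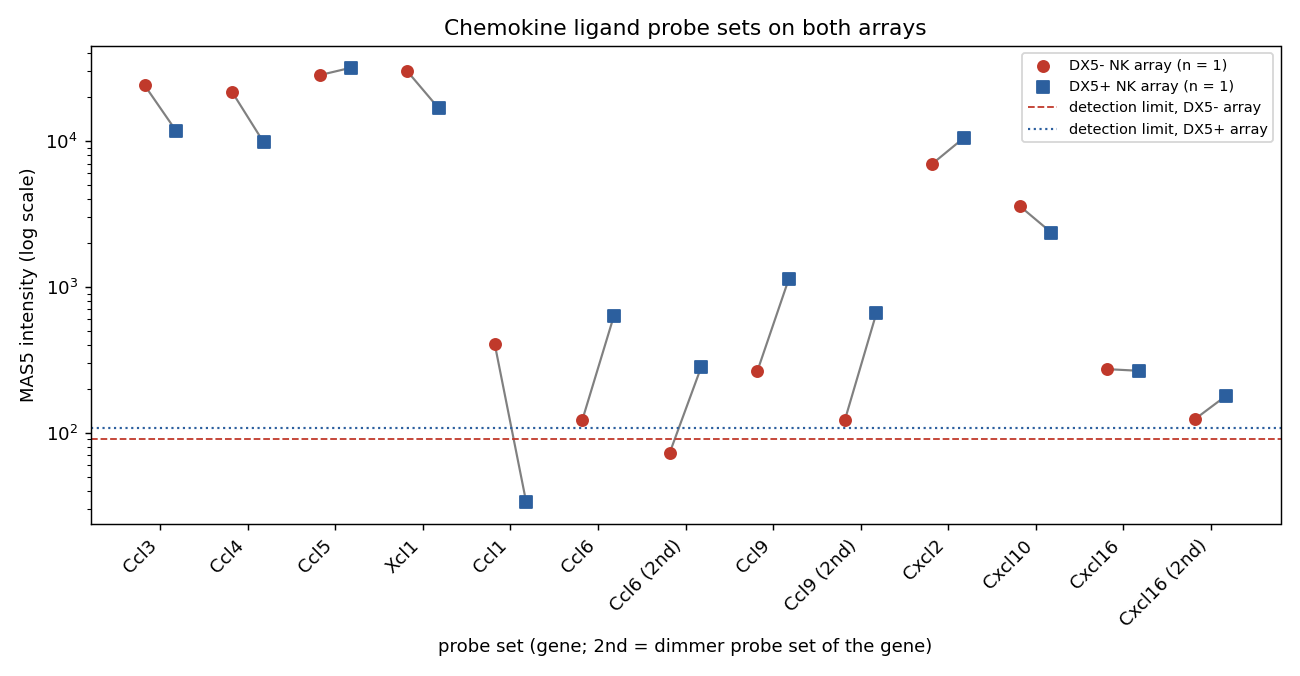
MAS5 intensity (log scale) of the 13 chemokine ligand probe sets, with the DX5- array at the left of each pair and the DX5+ array at the right, 1 array each; dashed and dotted lines are the detection limits. Ccl3, Ccl4, Xcl1 and Ccl1 lie higher on the DX5- array, and both probe sets of Ccl6 and of Ccl9 lie lower.

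The ligands that activated NK cells are known to secrete were described first. Ccl3, a CC ligand of the receptor CCR1, read 24085 in DX5- cells, against 11719 in DX5+ cells, 2.06-fold higher in DX5- cells. Ccl4, which encodes a closely related CC chemokine, read 21651 in DX5- cells, against 9792 in DX5+ cells, 2.21-fold higher. These neighbouring genes on chromosome 11 thus lay on the same side, with log2 ratios of 1.04 and 1.14.

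Xcl1, the XC chemokine (lymphotactin) recognised by cross-presenting dendritic cells, read 30115 in DX5- cells, against 16749 in DX5+ cells. Its fold, 1.80, was just short of 2-fold, as Ccl3 was just past it. With spike-in scaling the log2 ratio of Xcl1 was 1.06 in place of 0.85, which put it past 2-fold.

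Ccl5 (RANTES), which cytotoxic lymphocytes store and release, read 28284 in DX5- cells, against 31827 in DX5+ cells. Its log2 ratio of -0.17 was smaller than the SD between probe sets, and with spike-in scaling it was 0.05, on the other side of 0. Each of Ccl3, Ccl4, Ccl5 and Xcl1 was measured by 1 probe set. These probe sets are bright on arrays whose highest intensities were 41554 (DX5-) and 43870 (DX5+). Scanner saturation flags were not used here, so a compression of these ratios was not tested.

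Ccl1, a CC ligand of CCR8 that activated T cells and mast cells are known to make, read 406 in DX5- cells, against 33.4 in DX5+ cells. The DX5+ value was below the limit, so Ccl1 was at least 3.79-fold higher in DX5- cells. It was the 1 ligand detected on a single array. Its probe set carries the suffix _a_at, which Affymetrix gives to probe sets that recognise several transcripts of a gene.

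Ccl6 and Ccl9 encode CC chemokines of rodents that are known from macrophages and other myeloid cells and act through CCR1. Ccl6 read 122 in DX5- cells, against 628 in DX5+ cells, 5.15-fold lower in DX5- cells. Its second probe set read 73.1, below the limit, in DX5- cells, against 283 in DX5+ cells, at least 3.09-fold lower. Both probe sets thus lay lower on the DX5- array, and on it they were near the limit.

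Ccl9 read 264 in DX5- cells, against 1133 in DX5+ cells, 4.29-fold lower in DX5- cells. The other Ccl9 probe set read 122 in DX5- cells, against 659 in DX5+ cells, 5.43-fold lower. The measured log2 ratios of the paired probe sets differed by 0.41 for Ccl6 and 0.34 for Ccl9, close to the SD between probe sets of a gene. When the limit was set at the 99th percentile, 402 (DX5-) and 161 (DX5+), Ccl6 lay inside 2-fold at a bound of -0.65, which left Ccl9 (-1.50) as the 1 ligand at least 2-fold lower.

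**Figure D2:**
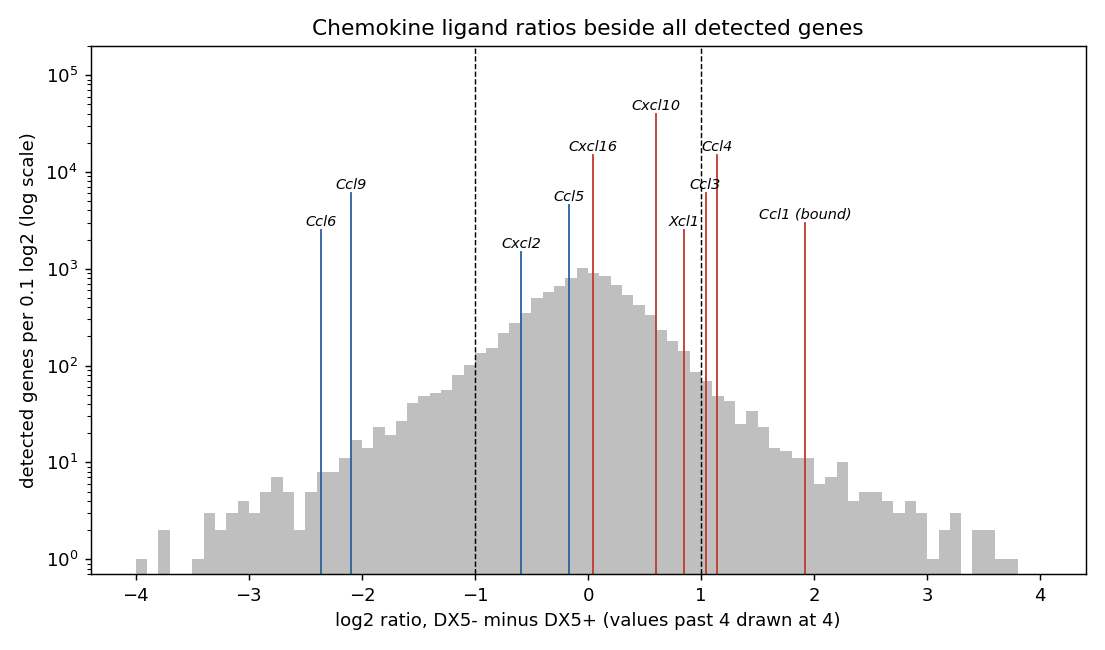
Number of detected genes (log scale) per 0.1 of log2 ratio, DX5- minus DX5+, in grey, with the 10 chemokine ligands as vertical lines and 2-fold as dashed lines; line height carries no value. Ccl6 (-2.36) and Ccl9 (-2.10) lie in the lower tail, Ccl1 (bound 1.92), Ccl4 and Ccl3 beyond 2-fold on the higher side, and the other 5 between.

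Ccl5, Ccl9, Ccl6, Ccl3 and Ccl4 follow each other among the protein-coding genes of mouse chromosome 11 in a RefSeq table of assembly GRCm38.p6. Their log2 ratios in that order were -0.17, -2.10, -2.36, 1.04 and 1.14. Ccl6 and its neighbour Ccl3 lay on opposite sides of 0, while Ccl9 and Ccl6, and Ccl3 and Ccl4, shared a side. Promoter windows from RefSeq (GRCm38.p6), from 250 bases before to 50 after the annotated start, were found for 7 of the 10 ligands. Ccl4, Ccl5 and Cxcl16 had no window and were not searched. The windows of Ccl9 and Ccl6, the 2 ligands at least 2-fold lower in DX5- cells, are shown with the stretch that a local alignment placed against each other in capitals. They lie on the minus strand at chr11:83578587-83578886 (Ccl9) and chr11:83593038-83593337 (Ccl6) and are written 5′ to 3′ along the gene.
Ccl9: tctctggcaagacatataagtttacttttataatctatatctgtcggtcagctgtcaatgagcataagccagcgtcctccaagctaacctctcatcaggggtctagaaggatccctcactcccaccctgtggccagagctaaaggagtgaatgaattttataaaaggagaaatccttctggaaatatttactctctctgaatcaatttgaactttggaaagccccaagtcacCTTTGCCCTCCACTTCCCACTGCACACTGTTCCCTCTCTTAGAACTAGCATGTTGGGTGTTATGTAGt
Ccl6: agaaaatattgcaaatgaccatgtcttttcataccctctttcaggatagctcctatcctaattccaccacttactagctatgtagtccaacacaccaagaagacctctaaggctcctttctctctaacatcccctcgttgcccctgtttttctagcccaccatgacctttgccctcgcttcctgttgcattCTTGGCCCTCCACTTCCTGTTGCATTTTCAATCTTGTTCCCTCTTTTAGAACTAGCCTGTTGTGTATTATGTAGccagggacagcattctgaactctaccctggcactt
Of 74 aligned positions 58 were identical (78.4%), with 9 mismatches and 7 gap positions. The alignment is a description of the windows and was not linked to expression.

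The same measures were taken for the CXC ligands. Cxcl2, a neutrophil attractant that acts on CXCR2, read 6980 in DX5- cells, against 10512 in DX5+ cells, 1.51-fold lower in DX5- cells. Cxcl10, an interferon-inducible ligand of CXCR3, read 3576 in DX5- cells, against 2356 in DX5+ cells, 1.52-fold higher. These CXC ligands lay on opposite sides of 0, and both were within 2-fold.

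Cxcl16, the membrane-anchored ligand of CXCR6, read 273 in DX5- cells, against 266 in DX5+ cells, a log2 ratio of 0.04. Its second probe set read 124 in DX5- cells, against 180 in DX5+ cells, a log2 ratio of -0.54. The probe sets thus disagreed in direction, and the mean over both gave -0.25. Adam10, the protease known to shed CXCL16, read 3530 in DX5- cells, against 2898 in DX5+ cells, while Adam17, a related sheddase, read 1481 in DX5- cells, against 2477 in DX5+ cells. Neither protease gene was 2-fold apart.

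Cxcl2 has near relatives, Cxcl1 and Cxcl3, that act on the same receptor. Cxcl3 read 122 in DX5- cells, against 260 in DX5+ cells, 2.14-fold lower in DX5- cells. Cxcl1 read 506 in DX5- cells, against 546 in DX5+ cells (log2 ratio -0.11) by its brightest probe set, which can cross-hybridise according to its _x_at suffix. Its other probe sets had log2 ratios of -0.59 and -1.12. Each of these 3 CXCR2 ligands therefore lay lower in DX5- cells on each of its probe sets as deposited, by unequal amounts, although with spike-in scaling Cxcl1 was at 0.11. Their promoters are shown because all of them hold the NF-kappaB consensus of 10 letters, given here in capitals as the run covered by overlapping matches on both strands. The 100-base stretches lie on the plus strand at chr5:90903782-90903881 (Cxcl2), chr5:90891154-90891253 (Cxcl1) and chr5:90786008-90786107 (Cxcl3).
Cxcl2: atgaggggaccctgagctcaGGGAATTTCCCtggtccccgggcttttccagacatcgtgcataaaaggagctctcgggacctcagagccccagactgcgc
Cxcl1: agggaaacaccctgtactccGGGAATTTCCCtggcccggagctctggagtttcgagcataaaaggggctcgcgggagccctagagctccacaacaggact
Cxcl3: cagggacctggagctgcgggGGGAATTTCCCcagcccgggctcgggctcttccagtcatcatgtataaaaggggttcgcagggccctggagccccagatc
The matched run is the same in all 3. In local alignments of the whole windows, Cxcl2 was 72.7% identical to Cxcl1 over 176 positions and 67.3% identical to Cxcl3 over 284 positions.

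The window of Cxcl10, which went the other way, is given for comparison. It lies on the minus strand at chr5:92348840-92349139. Capitals mark, in order, the interferon-stimulated response element (ISRE, searched as GAAA, any 2 bases and GAAA) and a pair of NF-kappaB consensus matches.
Cxcl10: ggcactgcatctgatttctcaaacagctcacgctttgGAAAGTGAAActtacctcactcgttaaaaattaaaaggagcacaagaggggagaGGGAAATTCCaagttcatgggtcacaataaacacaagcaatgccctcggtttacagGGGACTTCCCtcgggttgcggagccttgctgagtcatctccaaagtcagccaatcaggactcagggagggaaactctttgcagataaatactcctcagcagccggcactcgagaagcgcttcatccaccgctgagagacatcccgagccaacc
Both strands were searched. Among the 7 ligands with a window, the NF-kappaB consensus was found in Cxcl2, Cxcl10 and Ccl9, and it was in 4.51% of all 32851 promoter windows. The ISRE was found in Cxcl10 alone among the 7 ligands with a window, and in 3.44% of all windows. The AP-1 motif TGANTCA was found in Cxcl10 and Ccl9, and in 7.81% of all windows. A match describes these letters only, and ligands with an NF-kappaB match lay on both sides of 0.

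**Figure D3:**
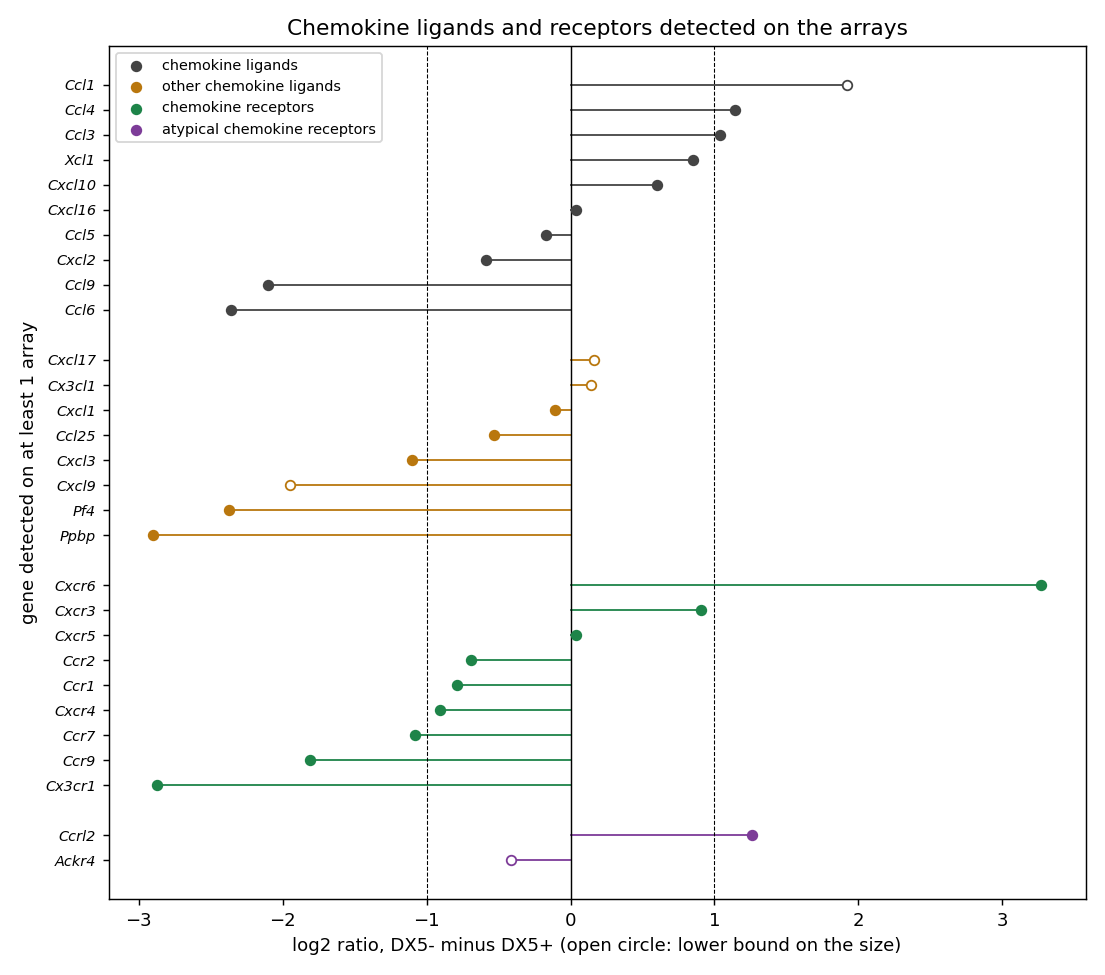
Log2 ratio, DX5- minus DX5+, of the chemokine ligands and receptors detected on at least 1 array, grouped by list and sorted within each list; open circles are lower bounds on the size and dashed lines mark 2-fold. Cxcr6 (3.27) stands at the high end of the receptors, and Ppbp (-2.90) and Cx3cr1 (-2.87) at the low end of their lists.

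The other chemokine ligands of the mouse were mostly not detected. Of 28 listed genes 25 had a probe set and 17 were below the limit on both arrays, Ccl2, Ccl7, Ccl8 and Cxcl12 among them. Of the 8 detected, 4 passed 2-fold on the lower side (Ppbp, Pf4, Cxcl9 and Cxcl3) and 0 on the higher side, with a median log2 ratio of -0.81. Cxcl9, like Cxcl10 a ligand of CXCR3 induced by interferon gamma, read 80.4, below the limit, in DX5- cells, against 354 in DX5+ cells, at least 3.87-fold lower. Cxcl9 and Cxcl10 thus lay on opposite sides of 0. Ppbp and Pf4 encode chemokines of platelet granules and had log2 ratios of -2.90 and -2.37. Ccl25 had a log2 ratio of -0.53, and Cxcl17 and Cx3cl1, detected in DX5- cells only, had bounds of 0.16 and 0.14. Scaled to the spike-in controls, 3 of these 8 genes were past 2-fold on the lower side, Cxcl3 no longer among them.

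The receptors of these ligands were set beside them where a probe set of their own existed. Cxcl16 was close to equal, whereas Cxcr6, the gene of its receptor, read 7425 in DX5- cells, against 772 in DX5+ cells, 9.62-fold higher in DX5- cells, and its second probe set had a log2 ratio of 3.85. Cxcr3, the receptor gene of Cxcl10, read 3494 in DX5- cells, against 1864 in DX5+ cells, 1.87-fold higher, on the same side as its ligand. Ccr1, which encodes a receptor for CCL3, CCL5, CCL6 and CCL9, read 118 in DX5- cells, against 203 in DX5+ cells, 1.73-fold lower. Ccr8, Ccr3, Xcr1 and Cxcr2, receptor genes for CCL1, CCL5, XCL1 and CXCL2, were below the limit on both arrays. So for Ccl1, Xcl1 and Cxcl2 the receptor gene given here was not detected on either array.

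Of the 9 detected receptor genes, Cxcr6 was the 1 at least 2-fold higher, and 3 were at least 2-fold lower in DX5- cells: Cx3cr1 (7.33-fold), the fractalkine receptor, Ccr9 (3.51-fold), a gut-homing receptor, and Ccr7 (2.11-fold), a lymph node homing receptor. Within 2-fold lay Cxcr4 (log2 ratio -0.91), the receptor of CXCL12, Ccr2 (-0.69), a receptor of inflammatory monocytes, and Cxcr5 (0.04), the receptor of CXCL13. The receptor median was -0.79, against 0.32 for the 10 ligands; neither was tested. With spike-in scaling, 2 receptor genes were past 2-fold on the higher side, Cxcr3 being added, and 2 on the lower side, Ccr7 no longer among them. Ccrl2, an atypical receptor that binds chemerin, read 9101 in DX5- cells, against 3802 in DX5+ cells, 2.39-fold higher. Ackr4, a scavenging receptor, was detected in DX5+ cells only, with a bound of -0.41.

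Markers of macrophages, neutrophils and platelets were mostly lower in DX5- cells where detected, as Ccl6 and Ccl9 were. Macrophage and Kupffer cell markers had 7 of 16 detected, of which 6 were at least 2-fold lower in DX5- cells (4 with spike-in scaling). Examples were Mpeg1 (4.25-fold), Lyz2 (3.44-fold) and Lyz1 (6.40-fold), the last by an _x_at probe set, which can cross-hybridise. The summed intensity of the macrophage and Kupffer cell markers was 1880 on the DX5- array, against 6779 on the DX5+ array. Defining Kupffer cell markers (Clec4f, Timd4, Vsig4, Marco and the 3 C1q genes) were below the limit on both arrays. The brightest Csf1r probe set, detected in DX5+ cells only, had a bound of -1.35. Of the dimmer ones, 1 had a log2 ratio of -0.21. Another was above the limit on the DX5- array only, with a bound of 0.00.

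Neutrophil markers had 5 of 8 detected and 3 of these passed 2-fold on the lower side, Ngp by 2.94-fold and S100a9 by 2.90-fold among them, with summed intensities of 3804 (DX5-) and 9652 (DX5+); Mpo, Elane and Cxcr2 were below the limit on both arrays. Platelet markers had 9 of 9 detected, 7 at least 2-fold lower, led by Clec1b (8.26-fold), and Itgb3 2.66-fold higher, with sums of 1714 (DX5-) and 6237 (DX5+); Gp1bb, at least 6.17-fold lower, had a second probe set at -0.46. Basophil and mast cell markers had 3 of 7 detected and Cpa3 4.65-fold lower, with sums of 1968 (DX5-) and 2578 (DX5+). Most of both sums was Kit, at 1738 (DX5-) and 1739 (DX5+), so the sums say little about the other markers.

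Dendritic cell markers had 8 of 9 detected, 7 of them below 0, with Siglech 3.39-fold lower and sums of 10389 (DX5-) and 11208 (DX5+). The largest part of both sums was Itgax, the 1 detected marker above 0, at 5739 (DX5-) and 3971 (DX5+). Zbtb46 had a log2 ratio of -0.42 by its brightest probe set, while dimmer ones were at -1.13 and -1.87, past 2-fold. Hepatocyte (4 of 8 detected), endothelial (4 of 9), B cell (5 of 7) and erythroid markers (2 of 4) had median log2 ratios of -0.46, -0.26, 0.39 and 0.26, with 1 gene past 2-fold among them, Ttr of hepatocytes, 2.22-fold lower, and 0 with spike-in scaling. Fewer cells of a type and less RNA per cell cannot be told apart in such bulk samples. The part of these cell types in the values of Ccl6, Ccl9, Cxcl2, Cxcl3 and Cxcl9 was not tested.

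Some genes that respond to activation were higher in DX5- cells, as Ccl3 and Ccl4 were. Of 18 activation and NF-kappaB response genes, 18 were detected; 6 passed 2-fold on the higher side and 0 on the lower, and 12 lay within 2-fold, with a median log2 ratio of 0.78 and summed intensities of 244026 (DX5-) and 174512 (DX5+). The highest were transcription factor genes, with log2 ratios of 1.54 for Junb, 1.34 for Egr2, 1.32 for Atf3 and 1.30 for Fosb. Dusp2 (-0.19) and Ier3 (-0.54) lay on the other side. With spike-in scaling 17 of the 18 were above 0, against 14 as deposited. Nfkbia, which encodes the inhibitor of NF-kappaB, read 26369 in DX5- cells, against 27034 in DX5+ cells, and its other probe sets had log2 ratios from 0.20 to 0.32.

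Cytokine genes that NK cells are known to express together with CCL3, CCL4 and XCL1 lay on the same side as them. Csf2, the gene of GM-CSF, read 697 in DX5- cells, against 183 in DX5+ cells, 3.81-fold higher. Tnf read 584 in DX5- cells, against 240 in DX5+ cells, 2.44-fold higher. Ifng was 1.25-fold higher, within 2-fold. Its log2 ratio of 0.32 was about the size of the SD between probe sets of a gene (0.32).

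Of 14 T cell markers 12 were detected, 6 of them past 2-fold on the higher side and 0 on the lower. With quantile normalization or intensity-dependent centring 8 were past 2-fold on the higher side, and with spike-in scaling 10. Cd28 (-0.14) lay on the other side as deposited. Camk4 was 4.73-fold higher by its brightest probe set, while its other probe sets were too near the limits to give a fold. Bcl11b was 4.66-fold higher by its brightest probe set, with bounds of 0.95 and 1.44 on the others, and Cd3e at least 3.48-fold higher. The summed intensity of the T cell markers was 34452 on the DX5- array, against 14761 on the DX5+ array. Cd3g, at 14036 (DX5-) and 1072 (DX5+), 13.1-fold higher, was the largest part of the DX5- sum. The largest part of the DX5+ sum was Cd28, at 7668 (DX5-) and 8442 (DX5+). Cd4 and Cd8b1 were below the limit on both arrays. Cd8a was detected in DX5- cells only, at 206 against 81.3, at least 1.92-fold higher. The part of cell activation or of T cells in the values of Ccl1, Ccl3, Ccl4 and Xcl1 was not tested.

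Interferon-stimulated genes, among which Cxcl10 and Cxcl9 are usually counted, showed no common direction. Of 16 with a probe set 15 were detected, Igtp (log2 ratio 1.82) passed 2-fold on the higher side and Usp18 (a bound of -2.03) and Gbp3 (-1.08) on the lower (1 gene in place of 2 with spike-in scaling), with a median of -0.27 and sums of 24822 (DX5-) and 24538 (DX5+). Igtp and Gbp3 encode GTPases induced by interferon gamma.

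**Figure D4:**
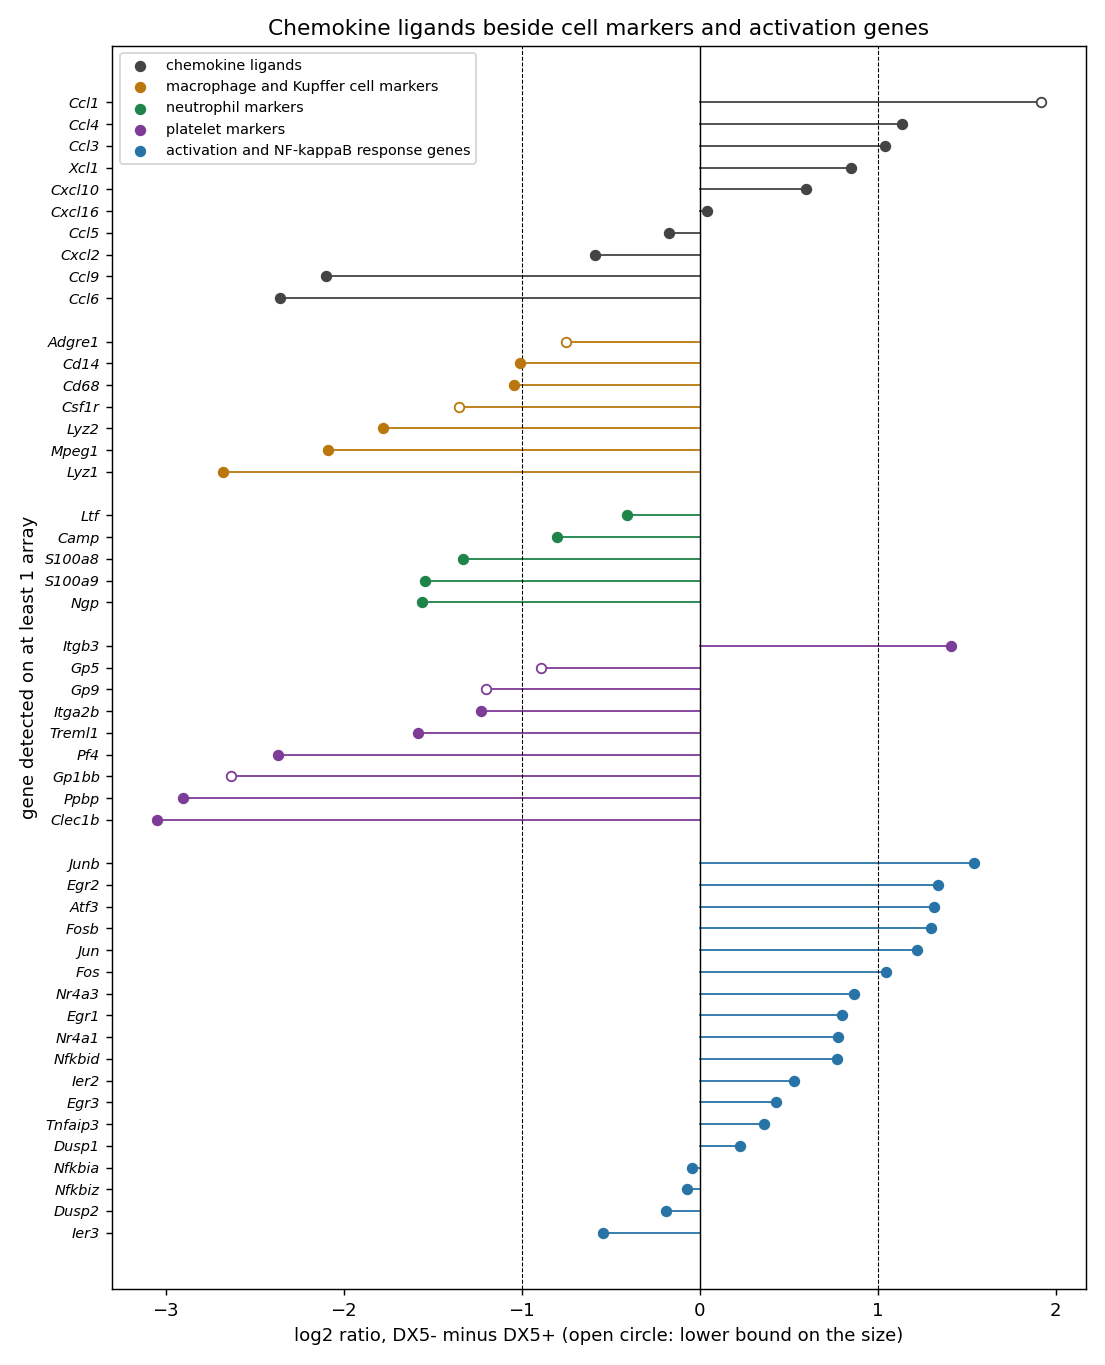
Log2 ratio, DX5- minus DX5+, of the 10 chemokine ligands above markers of macrophages, neutrophils and platelets and above activation genes, for genes detected on at least 1 array; open circles are lower bounds on the size and dashed lines mark 2-fold. The macrophage and neutrophil markers drawn are all below 0, and 14 of 18 activation genes are above 0 as deposited (17 with spike-in scaling).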

How the data were processed

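The authors deposited 1 linear intensity per probe set and array, made with MAS5 per the submitters' processing notes; the sources used here give neither its version nor its settings. Per the labels' protocols, biotin-labelled cRNA was hybridised. The table has no detection calls. The number of arrays, 1 per population, limits the precision. Probe sets were named from the platform annotation: 34958 had 1 gene symbol, 932 several and 9211 none; 34754 were matched by gene identifier to a RefSeq table (GRCm38.p6) and 0 were renamed. Each gene was read from its brightest probe set by mean log2 intensity. Values were used as deposited on the log2 scale without an offset. With 1 array per group no test was made; folds of at least 2 and 4 were counted. The 10 members and the 19 gene lists were chosen with earlier results of these data known. Named were every member, detected chemokine ligands and receptors, and at most 4 genes per other list from its largest ratios. Itga2, Klrb1c, Dusp2, Ier3, Nfkbia, Ncr1, Tyrobp, Itgb3, Cd28, Cd8a, Zbtb46 and undetected markers were added after their values were seen. The ratio step was tested on simulated data, with changes placed only in genes well above the detection limit. The scalings and the motif search were not tested in this way. 10 alternatives were tried. Python 3.11.15, numpy, pandas and statsmodels were used.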

Additional observations from a re-analysis of the deposited data

How the results depend on the processing

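No paired analysis was possible because each population has 1 array, and no replicate could be left out. Under the 10 alternatives (4 scalings, 3 detection limits, 2 rules for several probe sets and an offset of 100), 3 or 4 ligands passed 2-fold on the higher side, and the median log2 ratio of the ligands ran from 0.22 to 0.54. The count at least 2-fold lower was 2 under each alternative except the limit at the 99th percentile, where it was 1; Ccl6 in DX5- cells lies below that limit, so its value is a bound. The ratios of Ccl1, Ccl3, Ccl4, Xcl1 and Cxcl10 were positive, and those of Ccl6, Ccl9 and Cxcl2 negative, under every alternative run. Ccl5 changed sign with spike-in scaling (0.05) and Cxcl16 with the mean over probe sets (-0.25). The ratio of Ccl1 ran from 1.29 (offset of 100) to 3.60 (no detection limit), since its DX5+ value is below the limit. Of 100 ligand ratios under the alternatives, 8 moved by more than the SD between probe sets, all of Ccl1, Ccl6 or Ccl9. These 3 and Cxcl16 are the ligands with values closest to background.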
